A study of Homo sapiens with 3 samples.

Results

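Expression in HCT116 cells, a human colorectal carcinoma line, was compared between cells in which PRMT1 had been knocked down (PRMT1-KD2) and cells given a negative control (NC). Each group was 1 RNA sample on 1 array, so every value below is a difference between 2 arrays with no replicate. Both groups, and the second knockdown PRMT1-KD1, were HCT116 cells transfected with Lipofectamine 3000, and the labels name 2 siRNAs against PRMT1 without saying which of them made PRMT1-KD2. The control oligonucleotide's sequence and the time from transfection to harvest are not given in the labels. A gene entered the comparison when the NC array, the PRMT1-KD2 array or both had its brightest probe well above background, and 19421 of 41749 gene names did so. Signals are log2 of the scanner's processed intensity minus the array's 75th percentile, so that 0 marks the same rank of brightness on each array, and a change is the PRMT1-KD2 signal minus the NC signal. Changes of PRMT1-KD1 are set beside those of PRMT1-KD2; they use the same NC array, so an unusual NC signal enters both.

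PRMT1 is the main type I protein arginine methyltransferase of mammalian cells. It places asymmetric dimethyl marks on arginine in histone H4 and in many RNA-binding proteins, and the histone mark is usually found at active genes. A small interfering RNA lowers its target by guiding the RNA-induced silencing complex to a matching stretch of the transcript. The complex can also repress transcripts that pair only with the seed, the first few bases of the guide strand, as microRNAs do.

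The 2 siRNAs of the labels are printed because the PRMT1 signals and the seed comparison refer to them, with bases 2 to 8 in capitals.
siRNA-1: cUGAAGUCcaggucgauggugaaguc
siRNA-2: uUGUAGUCuuuguacugcc
The first is 26 bases long and the second 19 bases long, and no probe on the array held the complement of the whole of either one. The array measured PRMT1 with 1 probe (A_23_P39088, NM_001536), placed by the array's annotation on hg19 chr19:50188248-50189362, a span longer than the 60 bases of the probe. A separate probe (A_24_P366535) is annotated to PRMT1 pseudogene 1 on hg19 chr5, minus strand, between positions 176692609 and 176692668. Its sequence is shown with the stretch that lines up with the siRNA-1 target in capitals.
PRMT1 probe: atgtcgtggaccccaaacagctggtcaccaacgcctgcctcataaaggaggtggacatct
PRMT1 pseudogene probe: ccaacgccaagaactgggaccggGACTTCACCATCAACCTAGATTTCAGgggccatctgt
siRNA-1 target: gacttcaccatcgacctggacttcag
The capitals begin at base 24 of the pseudogene probe and match the target at 23 of 26 positions. The other 3 are G13A, G18A and C21T, with the target's base first and positions counted from the 5′ end of the target.

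The PRMT1 signal was 6.01 on the NC array, 2.75 on the PRMT1-KD1 array and 1.45 on the PRMT1-KD2 array. PRMT1-KD2 was the lowest of the 3, with a change of -4.56, that is 4.24% of the NC signal or 23.6-fold lower, against -3.26 in PRMT1-KD1. The pseudogene probe stood at 5.85, 2.15 and 0.78 in the same order, and its change of -5.07 was the lowest of all 19421 genes, with PRMT1 next. Among the other arginine methyltransferases, 9 of the 10 measured stayed within 1.5-fold. PRMT7, which makes monomethylarginine, was the exception, with signals of 5.47, 4.67 and 4.52 and a change of -0.95 in PRMT1-KD2, though its other probe gave -0.24. PRMT2, PRMT9 and PRMT6 had changes of 0.55, 0.53 and 0.46.

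The seed comparison asked whether genes whose 60-base probe holds the complement of bases 2 to 8 of an siRNA differed from the rest; it was added after the values had been seen. For siRNA-2 the complement is GACTACA, and 65 measured genes had it in their probe. In PRMT1-KD2, 29 of these 65 genes (44.6%) were lower by 1.5-fold, where 10.7% of all measured genes were, and 2 (3.08%) were higher, where 9.56% of all were. Their median change was -0.50, against -0.05 over all genes. In PRMT1-KD1, 10 of 63 of them (15.9%) were lower, with a median of -0.18, where 13.3% of the 18602 genes measured in both comparisons were lower. For siRNA-1 the complement is GACTTCA. The PRMT1 pseudogene probe shown above holds it and is counted among the 121 genes whose probes did. Of these, 32 (26.4%) were lower and 6 (4.96%) higher in PRMT1-KD2, with a median of -0.27, and 27 of 118 (22.9%) were lower in PRMT1-KD1, with a median of -0.27.

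Shorter and longer siRNA-2 matches gave lower shares of 25.4% of 291 genes for the complement of bases 2 to 7, 57.1% of 21 genes for that of bases 1 to 8 (GACTACAA) and 44.4% of 18 genes for that of bases 2 to 9, the last no higher than for bases 2 to 8. Other stretches of siRNA-2 gave 12.3% of 65 genes for bases 9 to 15, 8.70% of 46 genes for the seed of its opposite strand, and 6.25% of 48 genes for the seed letters themselves instead of their complement. The same stretches of siRNA-1 gave 7 of 28 genes for bases 9 to 15 (25%), close to the 26.4% of its own seed, 10 of 83 genes for the opposite strand and 14.4% of 104 genes for the seed letters. After subtracting the median of genes of like probe GC content and signal, 17.9% of those 28 genes and 23.1% of the 121 siRNA-1 seed genes were lower. Of 10014 heptamers held by the probes of at least 40 measured genes, GACTACA had the highest share of lower genes in PRMT1-KD2 and the lowest median, and GACTTCA ranked 7 by share. The median heptamer had 10.4% lower and the 99th percentile was 20.7%. In PRMT1-KD1 minus NC the same heptamers ranked 2338 and 381 of 9985. In PRMT1-KD2 minus PRMT1-KD1, which leaves out the NC array, GACTACA had 18 of 66 genes lower (27.3%, where 9.84% of all were) and ranked 9 of 10060. There GACTTCA had 20 of 122 genes lower (16.4%) and ranked 757.

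Subtracting from each change the median of genes of like probe GC content and signal left 21 of the 65 siRNA-2 genes (32.3%) lower by 1.5-fold. Among genes well above background on both arrays the count was 26 of 59 (44.1%). Only the 60 bases of each probe were searched, so a gene without a match there can hold one elsewhere in its transcript. Both sets together held 186 genes with 61 lower, and the other 19235 genes held 2011 lower (10.5%). The matching genes were thus 61 of the 2072 lower genes. A match is a description of the letters in the probe, and pairing with an siRNA was not tested.

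Some matching genes are shown with the 23 bases of the probe around the match, which is in capitals, as examples chosen after their values were seen; the positions are on hg19, and the array's annotation used here does not say whether they are exonic or in a UTR.
NDUFV3, chr21:44329028-44329050, plus strand: agcatcatGACTACAgcacgtac
YBEY, chr21:47711282-47711304, plus strand: ttccagatGACTACAatttggga
NME2, chr17:49248919-49248941, plus strand: aactggttGACTACAagtcttgt
IFIT5, chr10:91179586-91179608, plus strand: tgattaccGACTACAcaattatg
DCTN4, chr5:150088897-150088919, minus strand: tttgcataGACTACAcacatgtc
IL1RN, chr2:113891545-113891567, plus strand: cttcctgtGACTTCAgctctgtt
NAA38, chr17:7760012-7760034, minus strand: acctttcaGACTTCAttaaactt
NDUFV3, a subunit of mitochondrial complex I, had signals of 6.55 on NC, 6.18 on PRMT1-KD1 and 5.28 on PRMT1-KD2, a change of -1.28 against -0.37 in PRMT1-KD1. NME2, a nucleoside diphosphate kinase, went from 10.38 and 9.94 to 9.19, a change of -1.19. IFIT5, an interferon-induced RNA-binding protein, stood at 2.97, 2.91 and 1.84, so that PRMT1-KD1 lay beside NC and PRMT1-KD2 alone was low. DCTN4, a dynactin subunit, was at 3.83, 4.45 and 2.99, lower in PRMT1-KD2 and higher in PRMT1-KD1. The siRNA-1 matches IL1RN, the interleukin-1 receptor antagonist, and NAA38, an auxiliary subunit of an N-terminal acetyltransferase, were low on both knockdown arrays. IL1RN stood at -0.48, -2.36 and -2.41 and NAA38 at 9.27, 8.25 and 7.75. The other probe of IL1RN, not well above background on both arrays, had a change of 0.38 in PRMT1-KD2.

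**Figure D1:**
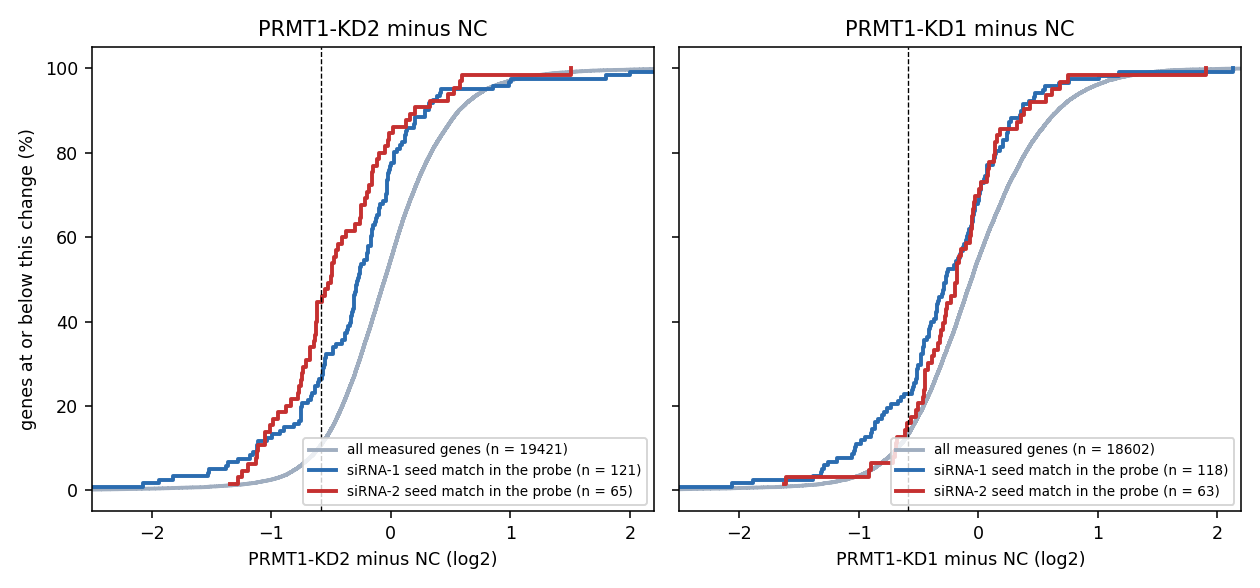
Cumulative share of genes (%) at or below each change (log2), for PRMT1-KD2 minus NC on the left and PRMT1-KD1 minus NC on the right; grey is all measured genes, blue the genes whose probe holds the siRNA-1 seed complement, red those with the siRNA-2 complement, and the dashed line a 1.5-fold decrease. On the left the red curve crosses the dashed line at 44.6% and the blue curve at 26.4%, and on the right at 15.9% and 22.9%.

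Over all measured genes, 2072 (10.7%) were lower and 1856 (9.56%) higher by 1.5-fold in PRMT1-KD2, and 3928 (20.2%) were past that fold either way. At 2-fold the counts were 488 (2.51%) and 556 (2.86%). The middle of the distribution was narrow, with quartiles at -0.34 and 0.25. The balance of lower against higher depended on the scaling of the arrays. Scaling each array to its median gave 3513 lower and 1175 higher, scaling to the 10 E1A spike-in probes gave 763 and 4172, and the authors' processed values gave 1440 and 2602. In PRMT1-KD1 minus NC, 12.8% of 19231 genes were lower and 13.2% higher.

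**Figure D2:**
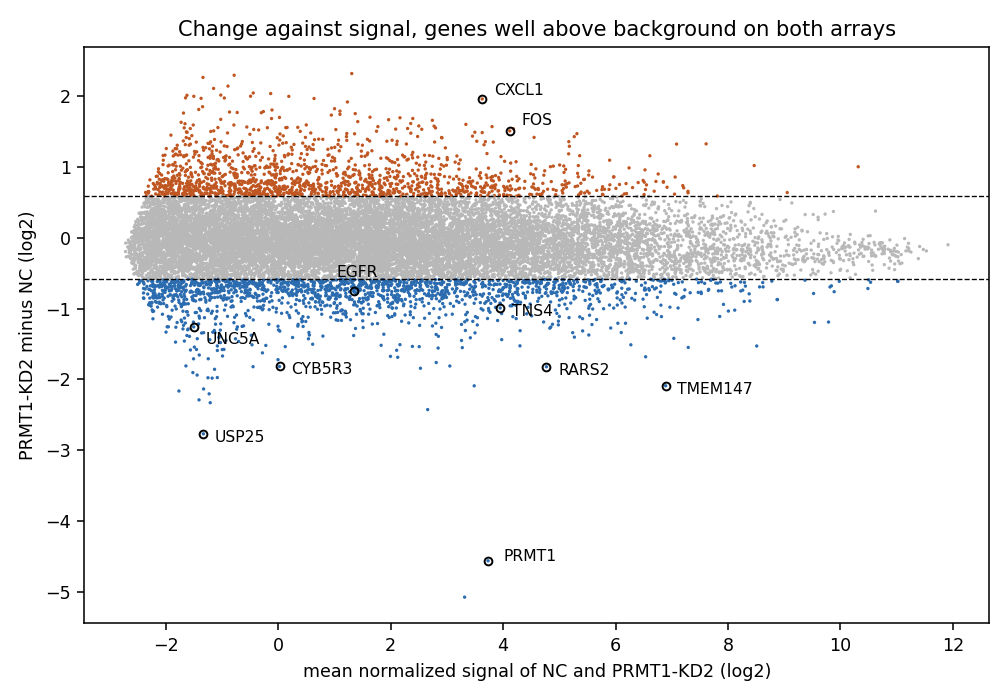
Change of each gene well above background on both arrays (PRMT1-KD2 minus NC, log2) against its mean signal on the 2 arrays (log2); each point is a gene, blue points are lower and orange points higher by 1.5-fold (dashed lines), and named genes are circled. PRMT1 at -4.56 lies far below every other point but that of its pseudogene probe at -5.07.

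Spread within an array was small beside that between the 2 knockdown arrays. Probes spotted 10 times on each array had a median SD of 0.05 (NC) and 0.04 (PRMT1-KD2) on the log2 scale, whereas the difference between the 2 knockdown arrays had a robust SD of 0.38 over 17054 genes; the latter holds any difference between the 2 knockdowns as well as that between arrays. Where a gene had a further probe well above background on both arrays, that probe gave a check on the same RNA. It was also lower by 1.5-fold for 46.6% of the 369 genes whose brightest probe was lower, against 9.13% of all 3931 such genes, and also higher for 40.8% of the 282 genes whose brightest probe was higher, against 8.37% of all. At 2-fold these shares were 66.0% of 50 genes and 57.6% of 66 genes.

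The direction moved with brightness and base composition. In the brightest quartile of genes 4.72% were higher and 9.85% lower, and in the dimmest 14.3% were higher and 13.4% lower. In the quartile with the lowest probe GC content 14.7% were higher and 8.98% lower, and in the one with the highest GC content 5.40% were higher and 12.5% lower. Spot quality moved with the largest changes. Of the 74 genes lower by 4-fold, 64 (86.5%) had an NC spot in the top 5% of pixel scatter (the SD of a spot's pixels over their mean, ranked among spots of like brightness), where 5.24% of all genes did. Of the 52 genes higher by 4-fold, 35 (67.3%) had such a spot on the PRMT1-KD2 array. Without these spots on either array, 1770 genes were lower (9.95%) and 1578 higher (8.87%) of 17787.

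**Figure D3:**
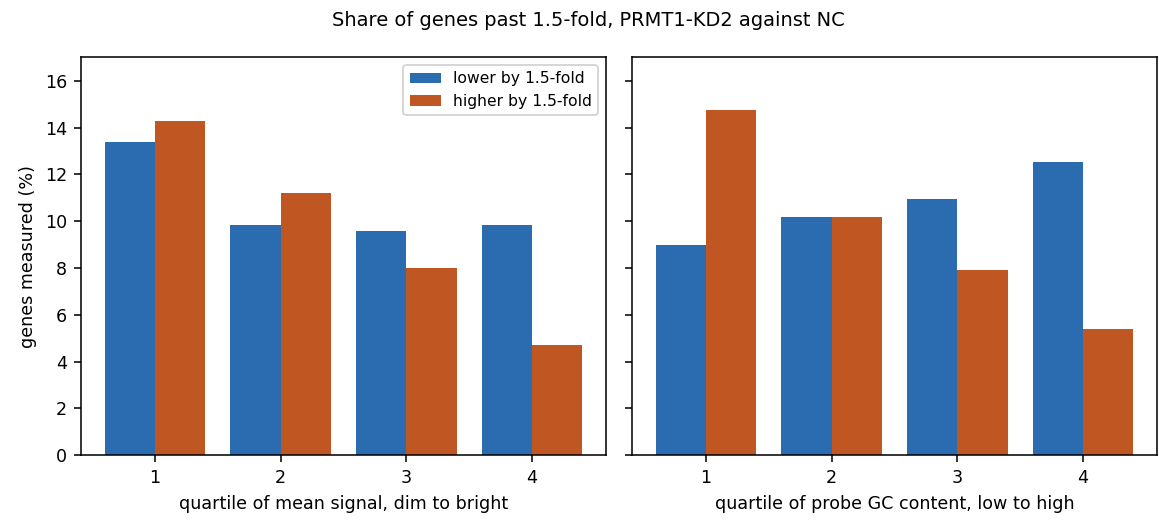
Share of measured genes (%) lower (blue bars) and higher (orange bars) by 1.5-fold in PRMT1-KD2 against NC, by quartile of mean signal on the left and by quartile of probe GC content on the right. The higher share drops from 14.3% to 4.72% from the dimmest to the brightest quartile, and from 14.7% to 5.40% from the lowest to the highest GC quartile.

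USP25 and UNC5A were both lower. USP25, a deubiquitinating enzyme (probe at hg19 chr21:17251556-17251615), had signals of 0.05 on NC, -1.76 on PRMT1-KD1 and -2.72 on PRMT1-KD2, a change of -2.77 or 14.7% of NC. Among genes with a current symbol and well above background on both arrays it was the lowest after PRMT1, and both knockdown arrays lay well under NC. Its NC spot was uneven, at percentile 99.4 of pixel scatter, and the part of that in the change was not tested. UNC5A, a receptor for netrin that can trigger apoptosis when its ligand is missing (hg19 chr5:176307504-176307563), stood at -0.88, -1.65 and -2.14, a change of -1.26 or 41.8% of NC, with a spot at percentile 74.1. Of the 42 ubiquitin-specific proteases measured, 5 were lower and 6 higher, with a median of 0.07. Of 6 measured netrin receptors and ligands, 2 were lower and 1 higher. Among them UNC5B and NTN1, which codes for netrin 1, had changes of -0.39 and 0.21.

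UNC5A belongs to 15 genes that the study listed as lower in its knockdowns and present in a public list of SMARCA4-bound genes, of which 12 were lower by 1.5-fold and none higher in PRMT1-KD2, with a median of -0.75. The study chose these genes partly on these arrays, so the count is not independent evidence of a direction. TNS4, a focal adhesion protein that binds activated growth factor receptors, stood at 4.44 on NC, 3.40 on PRMT1-KD1 and 3.45 on PRMT1-KD2, with changes of -1.04 and -0.99 in the knockdowns. EGFR, the epidermal growth factor receptor, stood at 1.72, 2.39 and 0.96. Its signal was lower in PRMT1-KD2, by -0.75, and higher in PRMT1-KD1, by 0.68, and its other probe gave 0.26 in PRMT1-KD2. The 2 EGFR probes thus differed in direction within 1 comparison.

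The rest of these 15 genes lay mostly between a 1.5-fold and a 2-fold decrease. POC1A, a centriole protein, had a change of -1.07, SYNE2, which links the nuclear envelope to actin, -0.91, and MBNL2, a splicing regulator, -0.80, the last with only -0.08 in PRMT1-KD1. SERPINA1, which codes for alpha-1-antitrypsin, had -0.79, SPC24, a kinetochore protein, -0.75, and TSPAN14, a tetraspanin, -0.75. HPSE, the heparan sulfate-cleaving heparanase, had -0.65, LOC100507002 had -0.61 and ANKRD2, an ankyrin repeat protein, -0.60. KIAA0040, ABCC3, an organic anion transporter, and ICMT, which methylates prenylated proteins, stayed within the fold at -0.26, -0.18 and 0.24; for all of them the other probe was lower, at -0.74, -1.05 and -1.07.

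Among genes with a current symbol and well above background on both arrays, the 20 lowest changes ran from -4.56 to -1.69, and the highest described here from 2.29 to 1.70. The low end held proteins of several compartments. TMEM147, an endoplasmic reticulum membrane protein, was the brightest of them, with signals of 7.94 on NC, 7.04 on PRMT1-KD1 and 5.85 on PRMT1-KD2. Its change was -2.09 and its other probe gave -2.16. RARS2, the mitochondrial arginyl-tRNA synthetase, stood at 5.68, 4.50 and 3.86, a change of -1.82; its probe holds the siRNA-1 seed complement, as does that of IL1RN, and none of the 20 holds the siRNA-2 complement.

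Several further low genes were under NC on both knockdown arrays. CIB2, a calcium- and integrin-binding protein, stood at 4.53, 3.53 and 2.44, a change of -2.09, and S100A3, of the S100 family of calcium-binding proteins, at 3.45, 2.49 and 1.61, a change of -1.84. LCN2, a lipocalin that binds bacterial siderophores, stood at 0.46, -0.96 and -1.36, a change of -1.82. In all of these PRMT1-KD1 lay between NC and PRMT1-KD2. LCN15, a further lipocalin, had a change of -2.33 and TTI2, a partner of TELO2 in the folding of PI3K-like kinases, one of -2.20, with NC spots at percentiles 99.6 and 98.2 of pixel scatter. IL1RN had a change of -1.94, with 0.38 from its other probe, which was not well above background on both arrays.

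Some of the low genes were low on the PRMT1-KD2 array alone. DRICH1, named for its aspartate-rich protein, stood at 3.87 on both NC and PRMT1-KD1 and at 1.44 on PRMT1-KD2. E2F5, a repressor of the E2F family in cell cycle control, stood at -0.10, -0.11 and -2.07. CYB5R3, which reduces cytochrome b5, stood at 0.93, 0.84 and -0.89. NT5DC2, of the 5′-nucleotidase domain family, stood at 3.69, 3.46 and 1.93. Their changes were -2.43, -1.97, -1.82 and -1.76, against 0.00, -0.01, -0.09 and -0.23 in PRMT1-KD1. The remaining low genes were ATRAID, a retinoic acid-induced factor at -1.81, GLB1L2 at -1.72, FAM180A at -1.71, SPATA6L at -1.71, FAM69B at -1.69 and LOC100506253 at -1.90; SPATA6L had an NC spot at percentile 98.7.

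At the high end CXCL1, a chemokine that attracts neutrophils, stood at 2.65 on NC, 4.09 on PRMT1-KD1 and 4.60 on PRMT1-KD2, a change of 1.96 with 1.30 from its other probe. Both arrays of knockdown cells lay above NC. The zinc finger genes ZNF616, ZNF267 and ZNF17 had changes of 1.96, 1.91 and 1.80, and their signals on PRMT1-KD1 were 1.80, 1.77 and 1.12 against -0.35, 0.27 and -1.01 on NC. NR1H4, the bile acid receptor, stood at -1.62, -0.18 and 0.15, a change of 1.77. FGF20, a fibroblast growth factor, went from -1.49 and -0.07 to 0.50, and STK19, annotated as a serine/threonine kinase, had a change of 2.04. RFPL4AL1, a ret finger protein-like gene, had 1.73 with 1.64 from its other probe, and LINC01447, a long non-coding RNA, 1.70. TEX14, a protein of intercellular bridges in germ cells, stood at 0.09 on NC and 1.91 on PRMT1-KD2, a change of 1.82 against 1.01 in PRMT1-KD1.

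Several of the high genes were dim, had no second line of evidence or had another probe that was not higher. VCX2, of an X-linked family with near-identical copies whose signals a probe may not tell apart, had a change of 2.29 and -0.58 from its other probe. LINC01192 had 2.14, with -0.68 in PRMT1-KD1. Its other probe, not well above background on both arrays, gave -0.67 in PRMT1-KD2. MAP3K15, a kinase of the MAP kinase cascade, had 2.11, with -0.79 or lower in PRMT1-KD1, where its signal was not well above background. The PRMT1-KD2 spots of LINC01192 and MAP3K15 were at percentiles 98.8 and 99.4 of pixel scatter. ERO1LB, an oxidase of the endoplasmic reticulum, had 1.97 and MATN1, a cartilage matrix protein, 1.97, with -0.04 and -0.26 in PRMT1-KD1. Their PRMT1-KD2 spots were at percentiles 98.1 and 98.4. The other probe of MATN1, well above background on both arrays, gave -0.09. CDKN2A-AS1, an antisense RNA at the CDKN2A locus, had 2.03, ST8SIA5, a sialyltransferase, 2.01, ITGAM, an integrin of myeloid cells, 1.77 and ACSBG1, an acyl-CoA synthetase, 1.76.

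**Figure D4:**
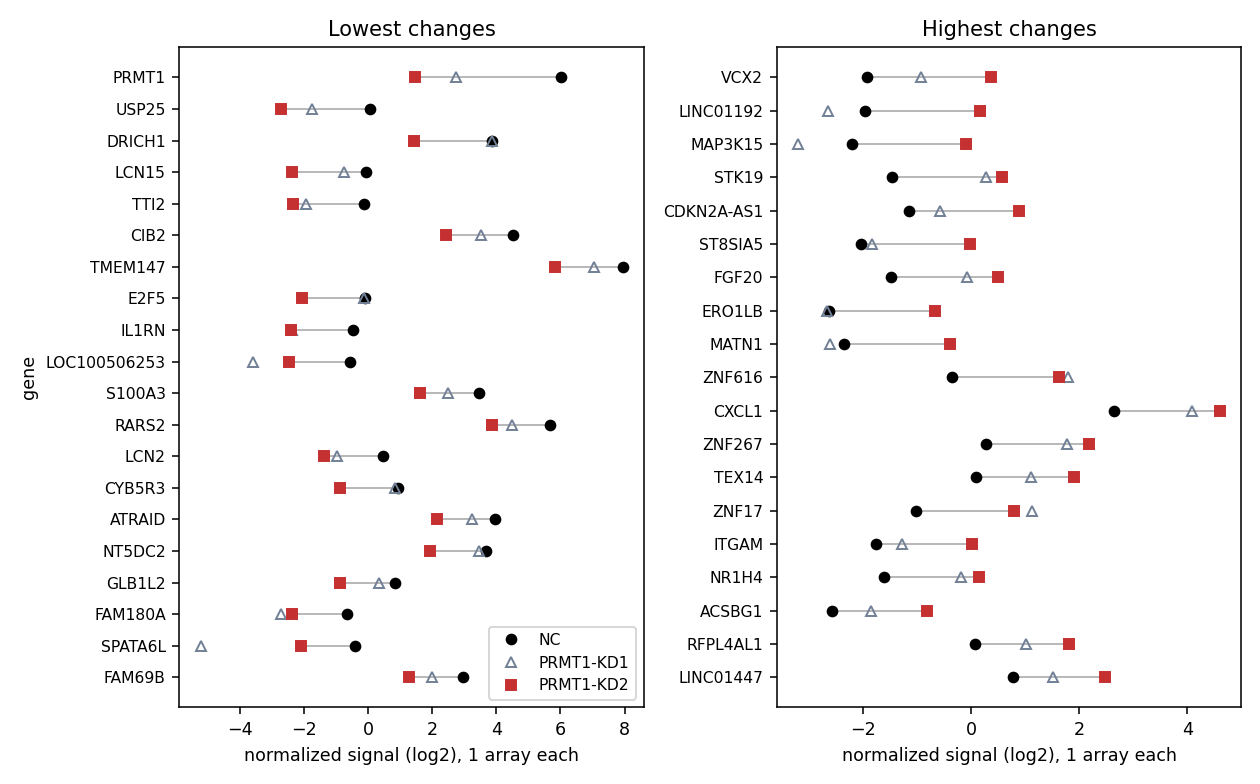
Normalized signal (log2) of the lowest and highest genes described in the text on the NC (black circles), PRMT1-KD1 (open triangles) and PRMT1-KD2 (red squares) arrays, 1 array each; the line joins NC and PRMT1-KD2. For DRICH1, E2F5 and CYB5R3 the PRMT1-KD1 triangle lies beside NC, and for ZNF616 and ZNF17 it lies to the right of the PRMT1-KD2 square.

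A gene well above background on 1 array only has a bound, and 2041 genes were of this kind, 666 seen on NC alone and 1375 on PRMT1-KD2 alone; bounds were 369 of the lower and 431 of the higher genes. Against the lowest signal called well above background on the dim array, ARHGEF38-IT1, an intronic transcript, was at least 7.91-fold lower in PRMT1-KD2, RBMS3-AS2 at least 7.68-fold, ADAMTSL4-AS1 at least 7.64-fold, IKZF1, a lymphoid transcription factor, at least 7.51-fold and TLL1, a metalloprotease, at least 7.44-fold lower. In the other direction SHBG, the sex hormone-binding globulin, was at least 7.09-fold higher and FARP2, an exchange factor for small GTPases, at least 7.08-fold. TAS2R8, a taste receptor, was at least 5.52-fold, CPO, a carboxypeptidase, at least 5.37-fold and NRIP3 at least 5.30-fold higher. The other probe of NRIP3 went the other way, with a change of -1.47, though it was not well above background on both arrays. All 5 lower genes had NC spots at percentile 98.8 or above of pixel scatter and all 5 higher genes had PRMT1-KD2 spots at percentile 96.5 or above.

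Gene lists give the functions among the genes past 1.5-fold. Uncorrected PRMT1-KD2 counts below are to be read against 10.7% lower and 9.56% higher over all genes and a median of -0.05. PRMT1-KD1 counts are to be read against 2468 lower and 2316 higher of 18602 genes and a median of -0.06. Counts corrected for probe GC content and signal have 9.13% lower and 9.98% higher over all genes. The immediate early genes, transcription factors and regulators switched on within minutes by growth factors and stress, had the highest median of the 51 lists. Of 21 measured members 15 were higher and none lower in PRMT1-KD2, with a median of 0.72. In PRMT1-KD1 10 were higher, with a median of 0.58. FOS, a subunit of the AP-1 transcription factor, stood at 3.36 on NC, 4.68 on PRMT1-KD1 and 4.87 on PRMT1-KD2, a change of 1.51 or 2.84-fold. CYR61, a secreted matrix protein, stood at 4.49, 6.08 and 5.85, a change of 1.35. ATF3, a stress-induced factor, stood at 6.95, 8.10 and 8.27, a change of 1.32 with 0.32 from its other probe. FOSB stood at 3.61, 3.75 and 4.66, so that its change of 1.05 was seen on the PRMT1-KD2 array and not in PRMT1-KD1 at 0.14. JUNB and KLF4 were the only members under 0, at -0.11 and -0.04.

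EGR1, an immediate early zinc finger factor, stood at 7.96, 8.64 and 8.98, a change of 1.02. Its promoter is shown, with the CArG boxes that serum response factor binds in capitals, from 150 bases before the gene's start (RefSeq, GRCh38.p14, chr5:138465329-138465478, plus strand).
EGR1 promoter: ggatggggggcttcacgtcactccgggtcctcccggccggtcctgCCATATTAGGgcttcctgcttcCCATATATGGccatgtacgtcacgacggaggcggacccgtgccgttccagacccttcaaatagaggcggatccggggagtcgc
In the 250 bases before the start, searched on both strands, a CArG box stood in 1 of 17 promoters of the list (5.88%), in 0.958% of the 11271 promoters of measured genes and in 1.14% of all 27305 promoters. Over all measured genes with the box, 16.7% of 108 were higher and 8.33% lower. The motif searches were added after the values had been seen.

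Lists of signalling targets had smaller medians above 0. Of 22 genes that report MAP kinase output, 6 were higher and 1 lower (median 0.19), with SPRY4, a feedback inhibitor of receptor tyrosine kinases, at 0.80 and DUSP5, a phosphatase of ERK, at 0.76. Of 14 YAP and TEAD targets, 4 were higher and none lower (median 0.26); LATS2, the kinase that restrains YAP, stood at -0.16, 1.39 and 1.13, a change of 1.29. Of 15 NF-kappa B targets, 3 were higher and none lower (median 0.41): CXCL1, TRAF1, a receptor adaptor at 0.73, and CXCL3, a chemokine well above background on 1 array. Of 13 TGF beta targets, 5 were higher and 1 lower (median 0.22), led by TGFBI, a matrix protein at 1.27, and BHLHE40, a circadian repressor at 1.02, with ID1, an inhibitor of helix-loop-helix factors, at -0.61. In PRMT1-KD1 the MAP kinase list had 11 higher and 3 lower (median 0.54), and the YAP and TEAD list 4 higher and none lower of 13 (median 0.35). There the NF-kappa B list had 6 higher and none lower (median 0.46), and the TGF beta list 2 higher and 2 lower (median -0.10). FOS, EGR1 and CYR61 belong to more than 1 of these lists, so the counts overlap.

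Among EGF receptors, ligands and regulators, 3 of 12 were lower and 3 higher. ERBB3, a receptor without its own strong kinase activity, stood at 0.69, -0.41 and -0.63, a change of -1.32 with 0.14 from its other probe, and BTC, the ligand betacellulin, had -0.84. The ligands EREG and HBEGF and the feedback inhibitor ERRFI1 had 0.98, 0.82 and 0.98. In PRMT1-KD1 HBEGF and ERRFI1 had 1.32 and 1.66, and the EREG signal was 4.75, against 4.23 in PRMT1-KD2 and 3.25 on NC.

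Mitotic genes had the lowest median of the 51 lists after the 15 genes that the study listed. Of 36 members, all measured, 12 were lower and none higher in PRMT1-KD2 (median -0.41), and 10 were lower in PRMT1-KD1 (median -0.27). CCNB1, the cyclin that drives entry into mitosis, stood at 6.29 on NC, 5.61 on PRMT1-KD1 and 5.29 on PRMT1-KD2, and its other probe gave a change of -0.50. TTK, the spindle checkpoint kinase MPS1, stood at 1.96, 0.65 and 1.06, a change of -0.90. HMMR, a spindle protein, had -0.88 and KIF20A, a kinesin of cytokinesis, -0.84. For all of these both knockdown arrays lay under NC. On scaling to the spike-in probes 3 of the 36 were lower by 1.5-fold, where 3.93% of all 19421 genes were. Of 37 DNA replication genes, 4 were lower and 1 higher (median -0.13), with MCM5, a subunit of the replicative helicase, at 5.92, 4.61 and 4.80, a change of -1.12 with -1.04 from its other probe, and PRIM1, a primase subunit, at -0.97. The MCM5 probe holds the siRNA-1 seed complement. Of 45 DNA repair genes, 9 were lower and 1 higher (median -0.23), with ERCC2, a helicase of nucleotide excision repair, at -1.16 with -0.44 from its other probe and BRCA2, of homologous recombination, at -0.84.

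PLK1, the mitotic polo-like kinase, stood at 3.43, 2.64 and 2.64, a change of -0.79 with -0.97 from its other probe. Its promoter is shown with the cell cycle homology region CHR (TTTGAA) in capitals (RefSeq, GRCh38.p14, chr16:23678739-23678888, plus strand), an element that cell cycle-dependent genes are known for.
PLK1 promoter: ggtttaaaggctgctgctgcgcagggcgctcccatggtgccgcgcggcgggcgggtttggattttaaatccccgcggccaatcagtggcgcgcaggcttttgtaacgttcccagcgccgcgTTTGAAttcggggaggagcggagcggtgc
TTTGAA stood in 15 of 30 promoters of the mitotic list (50%) and CCAAT in 24 (80.0%), against 8.75% and 35.0% of measured genes and 13.6% and 33.0% of all promoters, on either strand. Over all 986 measured genes with TTTGAA, 108 were lower and 90 (9.13%) higher, close to the shares of all genes.

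Interferon response genes were split. Of 33 measured, 12 were lower and 2 higher in PRMT1-KD2 (median -0.19), and 9 were lower and 4 higher in PRMT1-KD1. IFITM1, a membrane protein that blocks virus entry, stood at -0.66 on NC, -1.84 on PRMT1-KD1 and lowest on PRMT1-KD2, a change of -1.34. PARP14, an ADP-ribosyltransferase, had -0.93, and IFIT5, a seed match of siRNA-2 shown above, -1.13. GBP2, a guanylate-binding protein, moved the other way, from -1.23 and -1.20 to 0.22, a change of 1.46. With the correction for probe GC content and signal 6 of the 33 were lower. Of 12 genes of MHC class I presentation, HLA-C and HLA-B were lower, at -1.04 and -0.98, with -1.05 and -1.12 from their other probes; the HLA genes are near-identical in sequence and their probes may not tell them apart.
IFITM1 promoter, with the interferon-stimulated response element (GAAANNGAAA) in capitals (RefSeq, GRCh38.p14, chr11:313890-314039, plus strand): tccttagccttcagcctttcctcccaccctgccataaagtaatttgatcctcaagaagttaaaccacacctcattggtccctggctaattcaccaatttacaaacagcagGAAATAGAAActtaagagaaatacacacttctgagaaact
GAAANNGAAA stood in 17 of 25 promoters of the interferon list (68.0%), against 2.42% of measured genes and 3.07% of all promoters. Over all 274 measured genes with it, 11.7% were lower and 7.30% higher.

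Of 26 measured p53 targets, which include cell death and DNA damage genes, 4 were higher (15.4%) and none lower, with a median of 0.26. After the correction for GC content and signal 6 were higher and 1 lower. In PRMT1-KD1 9 were higher, with a median of 0.41. BBC3, the apoptosis activator PUMA, stood at 4.53, 5.50 and 5.82, a change of 1.29. XPC, which recognizes DNA damage, had 0.96, AEN, an apoptosis-enhancing nuclease, 0.66, and BAX, which opens the mitochondrial outer membrane, 0.60 with -0.27 from its other probe. CDKN1A, the p21 inhibitor of cyclin-dependent kinases, had 0.00. In the BCL2 family of 13, the survival protein MCL1 at 0.97 and the death activator BIK at 0.86 were higher and BAD, also a death activator, was lower at -0.80.

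Mitochondrial gene lists had medians under 0 with the scaling used here, and few single members past the fold. Of 51 respiratory chain subunits 4 were lower and 1 higher (median -0.29), and of 39 mitochondrial ribosomal proteins 6 were lower and none higher (median -0.23). MRPS2, of the small mitochondrial subunit, stood at 8.07 on NC, 7.18 on PRMT1-KD1 and 6.52 on PRMT1-KD2, a change of -1.55. MRPL37, of the large subunit, stood at 6.77, 5.72 and 5.43, a change of -1.34 with -1.34 from its other probe. NDUFA2, of complex I, stood at 7.13, 6.36 and 5.99, a change of -1.14. Cytosolic ribosomal proteins had a similar median of -0.21 over 56 members, 4 lower and none higher. Bright probes were lower more often than higher. Against genes of like GC content and signal the medians were -0.14 for the respiratory chain, with 2 lower, -0.11 for the mitochondrial ribosome, with 4 lower, and -0.04 for the cytosolic ribosomal proteins. In PRMT1-KD1 the mitochondrial ribosome had 2 lower and 3 higher and a median of 0.05. The 287 genes with the word mitochondrial in their description held 41 lower (14.3%) and 6 higher, and 25 lower (8.71%) after that correction, which left 9.13% of all genes lower.

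Metabolic and stress lists held members on both sides. Of 20 NRF2 targets, the antioxidant response, 5 were lower and 1 higher (median -0.28); AKR1C3, an aldo-keto reductase, had -0.86, TALDO1, of the pentose phosphate pathway, -0.84, FTL, the ferritin light chain, -0.73 with -0.60 from its other probe, and ME1, malic enzyme, 0.80. Of 27 glycolysis and hypoxia genes 5 were lower and 2 higher, with PFKM, a phosphofructokinase, at 5.49, 5.12 and 4.27, a change of -1.22. Of 24 genes of the amino acid response 4 were lower and 3 higher, with NUPR1, a stress-induced chromatin protein, at -1.26, PHGDH, the first enzyme of serine synthesis, at -1.11 and DDIT4, an inhibitor of mTORC1, at 0.90. Of 27 nucleotide synthesis genes 4 were lower and 3 higher; PAICS, of purine synthesis, stood at 5.56, 5.94 and 4.44, and RRM2, a subunit of ribonucleotide reductase, had 1.00. Of 22 sterol synthesis genes 4 were lower and 2 higher, among them HMGCS1 at 1.43, an enzyme at the start of the pathway. Of 23 ABC transporters 5 were lower and 1 higher, with ABCB1, the multidrug transporter, at 0.74 with 1.18 from its other probe. Of 21 genes of the unfolded protein response 2 were lower and 3 higher, and of 10 metallothioneins 1 was lower and 2 higher. After the correction for GC content and signal the lower and higher members were 2 and 2 for the NRF2 targets, 2 and 3 for glycolysis and hypoxia, 3 and 4 for the amino acid response, 3 and 2 for nucleotide synthesis, and 2 and 2 for sterol synthesis. In PRMT1-KD1 minus NC these lists had 2 and 4, 3 and 3, 1 and 6, 2 and 5, and 1 and 4 in the same order.

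Shares past the fold among SWI/SNF subunits (13.6% each way) and histone and DNA methylation enzymes (7.14% lower, 11.9% higher) were near those of all genes. SWI/SNF remodelling subunits held 3 lower and 3 higher of 22 (median 0.19), with BCL7B at 0.83, ACTL6A at -0.76, SMARCD3 at -0.75 and SMARCD1 at 0.71. Of 42 enzymes of histone and DNA methylation 3 were lower and 5 higher; KDM6B, a demethylase of histone H3 lysine 27, stood at -0.53, 0.59 and 0.81, a change of 1.34, SETD7, a lysine methyltransferase, had 1.02, and SUV39H1, which methylates histone H3 lysine 9, had -0.90 with -0.41 from its other probe. Histone genes were close to NC, with none of 31 past the fold and a median of 0.05; in PRMT1-KD1 7 were lower and the median was -0.41, and the difference between the knockdowns was not tested. Zinc finger genes, 662 by description, held 134 higher (20.2%) and 41 lower (6.19%), with a median of 0.13; their probes had a median GC content of 41.7% against 45%, and 130 were higher after the correction for GC content and signal.

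**Figure D5:**
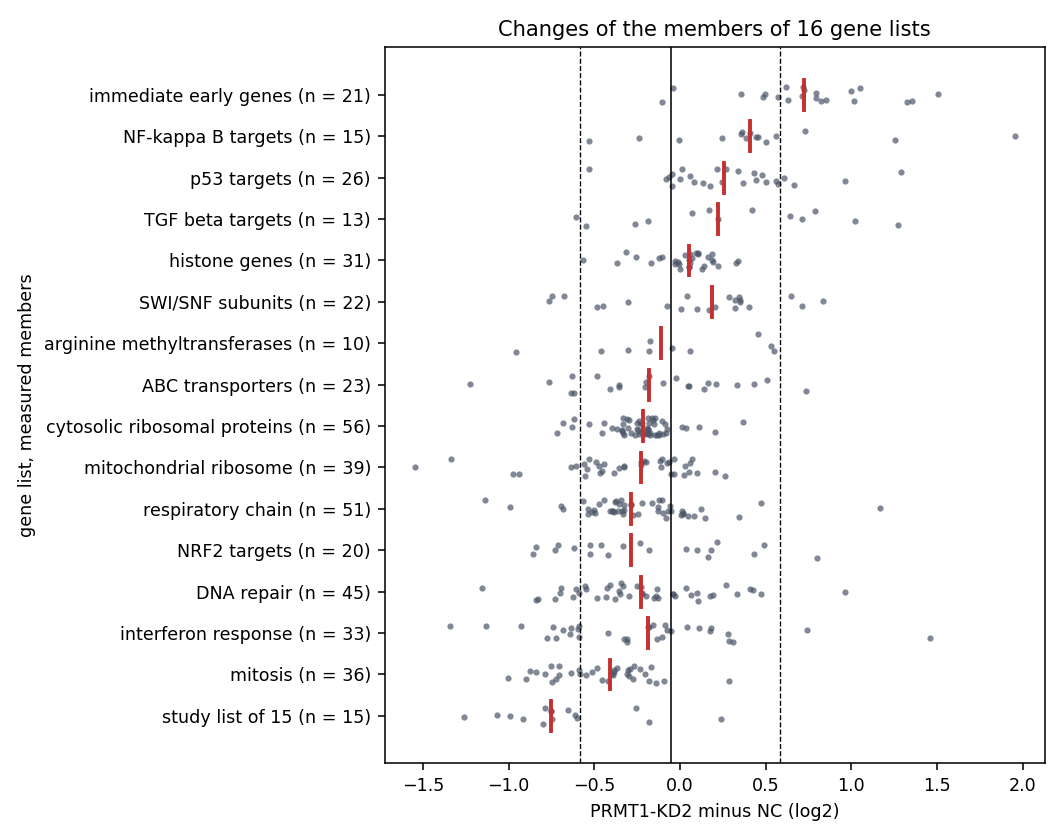
Change in PRMT1-KD2 minus NC (log2) of the measured members of 16 gene lists; each point is a gene, spread vertically for legibility, the red bar is the list's median, the solid line the median of all genes and the dashed lines 1.5-fold. The immediate early genes lie mostly to the right of the upper dashed line, with a median of 0.72, and the mitotic genes mostly to the left of the solid line, with a median of -0.41.

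Several lists held few members past the fold. Integrins and laminins had none of 16, proteasome subunits 2 of 31, with PSMC3, an ATPase of the regulatory particle, at -1.14, and SR splicing factors 2 of 21, with SON at 0.70. Ribosome biogenesis factors had 1 lower and 3 higher of 39, heat shock genes none lower and 2 higher of 17, and junction and desmosome genes 1 lower and 2 higher of 24. The hnRNP and related RNA-binding proteins, many of which carry the arginine-glycine stretches that PRMT1 methylates, had 1 lower and 3 higher of 28, with HNRNPM at 0.76. Of 12 genes of the TTT complex and its kinases TTI2 and ATR were lower, at -2.20 and -0.67. In other lists RAC1, a small GTPase of the actin cytoskeleton, stood at 1.55, 3.71 and 3.16, a change of 1.61, and SLC4A7, a bicarbonate transporter, had 1.55.

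The labelled cell type was checked against markers. Of 15 colon epithelial genes 12 were measured, with none lower and 3 higher in PRMT1-KD2, and the epithelial keratins KRT18 and KRT8 had signals of 10.46 and 9.22 on NC. The defining colonic genes KRT20, VIL1 and HNF4A were not well above background on either array. Fewer markers of other cell types were measured: 1 of 10 fibroblast, 4 of 10 leukocyte and 2 of 7 endothelial genes. Of the leukocyte genes 8 were found on the array. None of the measured markers was lower, and ITGAM and COL1A1 were higher, at 1.77 and 0.62.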

How the data were processed

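Total RNA of HCT116 cells was labelled with Cyanine-3 and hybridized to 1-colour Agilent arrays with 60-base probes, and the authors deposited 1 scanner file per array with intensity values from Agilent Feature Extraction 10.7.1.1, which subtracts background and corrects the surface trend; all 3 arrays came from 1 slide and 1 scan. A deposited table of intensities processed by the authors was used, after taking log2, as an alternative only. Its scaling is not given in the sources used here. Its column medians, before taking log2, were 7.91 (NC), 9.74 (PRMT1-KD1) and 9.43 (PRMT1-KD2). Changes from this table lay above those reported by the same 0.10 for PRMT1, the list medians and the median of all genes. Before centring, the 75th percentiles of the scanner signals were 6.87 (NC) and 6.97 (PRMT1-KD2) in log2, a gap of the same size. The SMARCA4 knockdowns of the study are not analysed here.

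From the processed signal, spots of 1 probe were averaged without outlier flags, which removed 130 of 58201 probes, and log2 values were centred on each array's 75th percentile. The brightest probe stood for a gene, and 1507 probes without a gene name were left out. A signal not well above background was raised to the lowest signal that was, if it lay below that. Of the measured names 13545 matched a current RefSeq symbol, 1015 an older one and 4861 none. The number of arrays limits the precision: with 1 array per group no test was possible, and the fold of 1.5 of the study's methods was used as a description. Share of spots well above background was 40.8% on NC and 42.5% on PRMT1-KD2, and no spot was saturated. Named genes were PRMT1, USP25, UNC5A, TNS4, EGFR, the 20 lowest and 20 highest changes among symbols well above background on both arrays, the 5 largest bounds each way, up to 4 members of a list by size of change, and 15 genes the study listed as lower and bound by SMARCA4; others were named after their values were seen, and some genes that the rule takes are not reported here. The members and the 51 lists were chosen with earlier results of these data known. Python 3.11.15, pandas 2.3.3 and, for background correction as an alternative, limma 3.58.1 in R 4.3.3 were used, and the scripts were tested on simulated data. Alternatives changed the background correction, scaling, filter, choice of probe and fold, and, added after the data were seen, corrected for probe GC content and signal and left out uneven spots or seed matches.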

Additional observations from a re-analysis of the deposited data

Results flagged for a closer look

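For 3 named genes the PRMT1-KD2 and PRMT1-KD1 arrays lay on opposite sides of NC by more than 1.5-fold. Of all 18602 genes measured in both comparisons, 43 did so. The difference between the knockdowns was not tested, since each is 1 array. EGFR had a change of -0.75 in PRMT1-KD2 and 0.68 in PRMT1-KD1, with 0.26 from its other probe in PRMT1-KD2. LINC01192 had 2.14 and -0.68, with -0.67 from its other probe in PRMT1-KD2. MAP3K15 had 2.11 and -0.79 or lower, its PRMT1-KD1 signal being not well above background. The PRMT1-KD2 spots of the last 2 genes were at percentiles 98.8 and 99.4 of pixel scatter, and the part of that in their changes was not tested.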

How the results depend on the processing

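PRMT1 was lower in PRMT1-KD2 under every setting run, between -4.71 with median scaling and -4.28 with normexp background correction or scaling to the E1A spike-in probes. The counts of genes past 1.5-fold moved more, from 2072 lower and 1856 higher. They were 965 and 801 with normexp (offset 50), 3513 and 1175 with median scaling, 763 and 4172 with the spike-in scaling, 4099 and 4667 of 41749 with no filter and no floor, 1362 and 1176 among 12641 genes with NM_ accessions only, and 488 and 556 at a fold of 2. By construction, fewer or more genes were compared in the unfiltered and NM_ settings, and a fold of 2 is a stricter cut. Median scaling, spike-in scaling, the percentile over detected probes and the authors' table each add a fixed amount to every change. For normexp the cause was not tested. The counts stayed within 1.5 times of those reported with quantile normalization, a percentile over detected probes, the authors' table, genes above background on both arrays, the mean over probes, outlier spots kept, the correction for probe GC content and signal, and uneven spots or seed matches left out. Median scaling moved the median of all genes by -0.15, the spike-ins by 0.27 and the authors' table by 0.10. Of the 51 list medians, 20 changed sign with the spike-in scaling, 13 with median scaling, 5 with the authors' table and 4 with the correction for GC content and signal, and at most 3 with any other setting; the spike-ins took the respiratory chain from -0.29 to -0.01 and DNA repair from -0.23 to 0.05, while immediate early genes stayed above 0 and mitotic genes under 0 in all of them. Of 3132 recomputed changes of named genes 104 moved by more than the robust SD of 0.38 between the knockdown arrays. Of these, 59 moved under normexp, 33 with the mean over probes, 9 with no filter and no floor and 3 with outlier spots kept. Several other settings could not pass that cut. Median, spike-in, detected-probe percentile and authors' table scaling shift every change by -0.15, 0.27, 0.06 and 0.10, and filters only drop genes. The count of 104 is therefore no measure of stability under those settings. A single change reversed: ABCC6 at 0.081 with the mean over probes, against -0.63.

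No paired analysis was possible because each group was 1 array and the labels carry no replicate numbers. Depth has no counterpart in these files beyond the signal over background: the dimmest quartile of genes held the most bounds, and the 2041 bounds have no upper limit on their fold. No value here separates a difference between conditions from one between 2 arrays.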
